A study of Mus musculus with 12 samples.

Results

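Clustered histone genes supply the bulk of the histone proteins that package newly copied DNA. The genes described here are those whose symbol in the deposited count table begins with Hist1h, Hist2h, Hist3h or Hist4h, which holds for 9 of the 55487 genes listed. Of these 9, 8 are annotated as protein-coding and 1, Hist1h2al, as a processed pseudogene. The coding members are the H2A genes Hist1h2an, Hist1h2ao and Hist1h2ap, the H2B genes Hist1h2bp, Hist1h2bq and Hist1h2br, and the H4 genes Hist1h4m and Hist1h4n. They are not the whole family: in GENCODE release 21 for mouse, 70 genes carry such a name, and the table lists the other 61 (59 coding, 2 pseudogenes) under newer symbols such as H1f2 and H2bc4. No H1 or H3 gene is therefore among the 9 members, and the 61 relatives, matched by Ensembl identifier, serve here only as a comparison.

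RNA was measured in breast tumours of 12 C57BL/6J mice of the MMTV-PyMT model, where an oncogene, polyoma middle T, is switched on in mammary epithelium by the promoter of the mouse mammary tumour virus. In 6 mice the Bad gene carried Bad3SA, which encodes a pro-apoptotic BAD protein whose regulatory serines can no longer be phosphorylated, and 6 mice had wild-type Bad (Bad_WT). All 12 carried the oncogene, and each tumour came from a separate mouse. Age at end point ran from 22.857 to 31.143 weeks in Bad3SA mice and from 21.286 to 27.143 weeks in Bad_WT mice, and the means differed by 3.4 weeks (27.5 ± 2.85 and 24.0 ± 1.93 weeks, SD, n = 6 each, exact two-sided permutation test, p = 0.0433). Polyadenylated RNA of whole tumour pieces was sequenced as paired 100-base reads, and 58096172 to 83296370 counts per tumour were assigned to genes. Levels are given as CPM, counts scaled to a library of 1e+06 after correction for library composition. In such bulk samples, fewer cells of a type and less RNA per cell cannot be told apart. The 7 mammary epithelial markers summed to 8590.0 to 13100.0 CPM in Bad3SA tumours and 7760.0 to 17900.0 CPM in Bad_WT tumours, against 22.3 to 43.9 and 11.4 to 40.5 CPM for 7 leukocyte markers. On the second principal component of log2 CPM, with 21.8% of the variance, Bad3SA 4, 5 and 6 stood at the far end, and values without them are given where they matter.

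As background, messenger RNAs of most clustered histone genes end in a short stem-loop in place of a poly(A) tail. The stem-loop is bound by the stem-loop binding protein SLBP, and the end is cut with the help of the U7 small nuclear ribonucleoprotein during S phase, when DNA is copied. A library made from polyadenylated RNA captures such messages poorly, although several of these genes also give transcripts with a poly(A) tail, for instance in cells that have stopped dividing. A level measured here is therefore a level in polyadenylated RNA and not the amount of histone message made.

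The annotated transcripts show which members carry the stem-loop. The letters searched on the transcript strand were GG, any 2 bases, CTTTT, any base, AG, any 2 bases and CC, and they occurred in 44 of the 70 family genes (62.9%) and in 34 of 21884 other protein-coding genes (0.155%). On the opposite strand they occurred in none of the 70 and in 0.101% of the other coding genes. Of the 9 members, 5 held them. A match alone does not tell whether a message also has a poly(A) tail. The annotated transcript of the relative H4c14, for instance, runs on for 1257 bases after the motif. The following sequences are shown because they are the matches to the stem-loop, with the matched letters in capitals and 3 bases on either side.
Hist1h4m: aaaGGCCCTTTTCAGGGCCatc
Hist1h4n: aaaGGCCCTTTTCAGGGCCatc
Hist1h2ao: aaaGGCTCTTTTCAGAGCCatc
Hist1h2ap: aaaGGCTCTTTTCAGAGCCatc
Hist1h2bp: aaaGGCTCTTTTCAGAGCCacc
H4c14, a relative on chromosome 3: aacGGCCCTTTTTAGGGCCaac

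Both H4 members had the same 22 bases, and both H2A members with a match had another shared run. The annotated transcripts of Hist1h2ap and Hist1h4m end 3 bases after the motif. A poly(A) signal (AATAAA or ATTAAA) within 50 bases of an annotated transcript end was present in 17 of the 70 family genes (24.3%), against 80.8% of other coding genes. Among the members it was found in 1 of the 2 annotated transcripts of Hist1h2bp, in 1 of 3 of Hist1h2bq and in 2 of 3 of Hist1h2br. Neither feature was found in Hist1h2an or in Hist1h2al, whose annotated models may stop short of a true transcript end. No match says only that these letters are absent from the annotated sequence.

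The 8 coding members lie in 1 block of 50.7 kb on chromosome 13 (GRCm38, 21786826 to 21837530), with no relative among them, while 47 of the 61 relatives lie elsewhere on the same chromosome. Their order gives 3 head-to-head pairs of an H2A and an H2B gene. Hist1h2an (minus strand, 21786826 to 21787218) and Hist1h2bp (plus, 21787461 to 21789213) are 242 bases apart, Hist1h2bq (minus, 21806612 to 21810197) and Hist1h2ao (plus, 21810465 to 21810944) are 267 bases apart, and Hist1h2ap (minus, 21833026 to 21833507) and Hist1h2br (plus, 21833743 to 21837530) are 235 bases apart. Hist1h4m (plus, 21811746 to 21812147) follows Hist1h2ao at 801 bases, and Hist1h4n (minus, 21831767 to 21832196) stands 829 bases from Hist1h2ap. The run of H2B, H2A and H4 genes thus occurs as inverted copies, and the map of the block shows them facing each other. Annotated miRNA genes overlap Hist1h2an, Hist1h2ao, Hist1h2ap and Hist1h2al on the opposite strand. They had no counts, except for 7 in Bad3SA and 0 in Bad_WT for the miRNA gene at Hist1h2al.

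**Figure D1:**
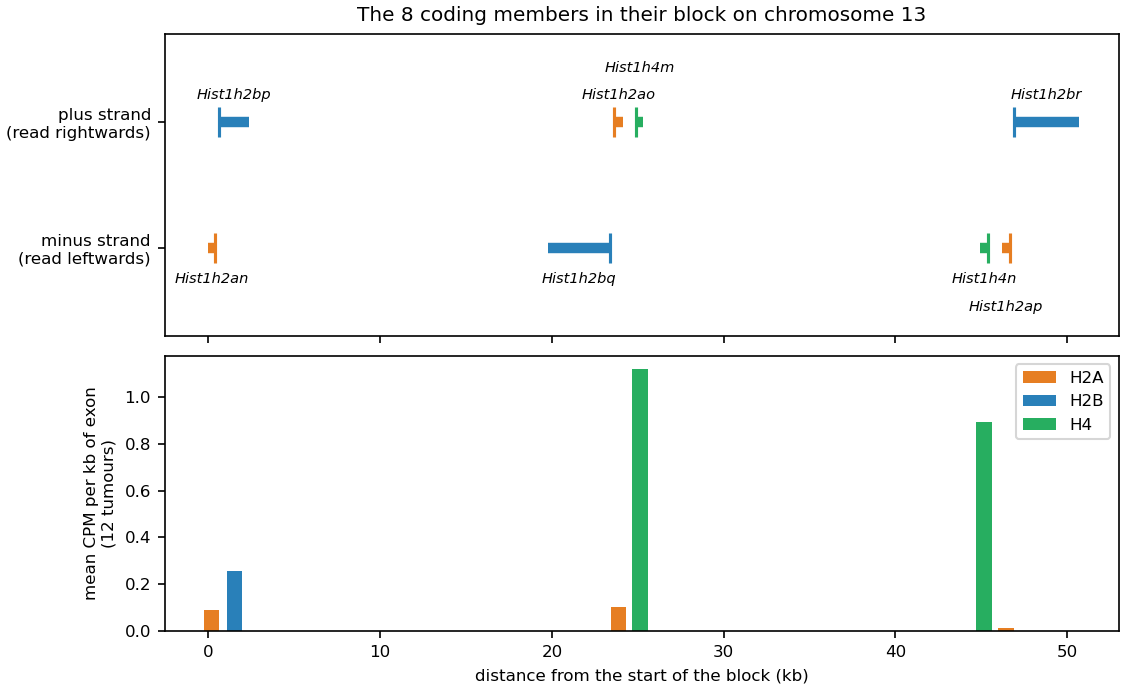
Upper panel, the 8 coding members drawn to scale by strand against distance in kb from the start of the block, with a tick at each 5′ end; lower panel, mean CPM per kb of annotated exon over 12 tumours at the middle of each gene. The H4 genes Hist1h4m and Hist1h4n stand highest at 1.12 and 0.893 CPM per kb, and Hist1h2br is at 0.

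The copies are nearly identical, which limits how their reads could be assigned. Hist1h4m and Hist1h4n differ at 1 of 402 aligned bases (G36A, counted from the 5′ end of each transcript, with the Hist1h4m base first). Hist1h2ao and Hist1h2ap are identical over 452 aligned bases, and Hist1h2bq and Hist1h2br are 99.75% identical over 2002 with no substitution. Of all 100-base windows, the length of a read, 88.1% in Hist1h4m and 80.7% in Hist1h4n also occur in another gene, and the share is 94.8% in Hist1h2bq, 92.7% in Hist1h2ao, 92.2% in Hist1h2ap, 86.4% in Hist1h2br and 83.3% in Hist1h2an. Hist1h2bp is the exception at 31.1%. The sources used here do not say whether reads that match several genes were counted, so the values of these 7 members are uncertain as levels of the single gene. Single reads that fall in a shared window cannot be told apart from those of the other gene.

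Coding members were scarce in every tumour. None of the 8 reached a mean of 1 CPM, and 3 reached a mean of 0.1 CPM, namely Hist1h4m (0.449), Hist1h4n (0.384) and Hist1h2bp (0.181 CPM over 12 tumours). Per kb of exon the order ran from Hist1h4m (1.12) through Hist1h4n (0.893), Hist1h2bp (0.256), Hist1h2ao (0.1), Hist1h2an (0.0885), Hist1h2ap (0.0105) and Hist1h2bq (0.00125 CPM per kb) to Hist1h2br at 0. The ranges over tumours of neighbours in this order overlapped, and differences between neighbours were not tested. Summed over the 8 genes, the level was 0.659, 1.33 and 2.73 CPM (lowest, median, highest) in Bad3SA tumours and 0.506, 0.7 and 1.1 CPM in Bad_WT tumours. The means were 1.44 ± 0.785 and 0.765 ± 0.23 CPM (SD, n = 6 each), so the groups overlapped and the difference of 0.677 CPM was about the size of the spread. The 3 highest sums belonged to Bad3SA 6, 4 and 5, the tumours that stood apart on the second component, at 2.73, 1.91 and 1.42 CPM. Bad3SA 1 followed at 1.25 CPM, and Bad3SA 2 and 3, at 0.659 and 0.695 CPM, lay inside the Bad_WT range.

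**Figure D2:**
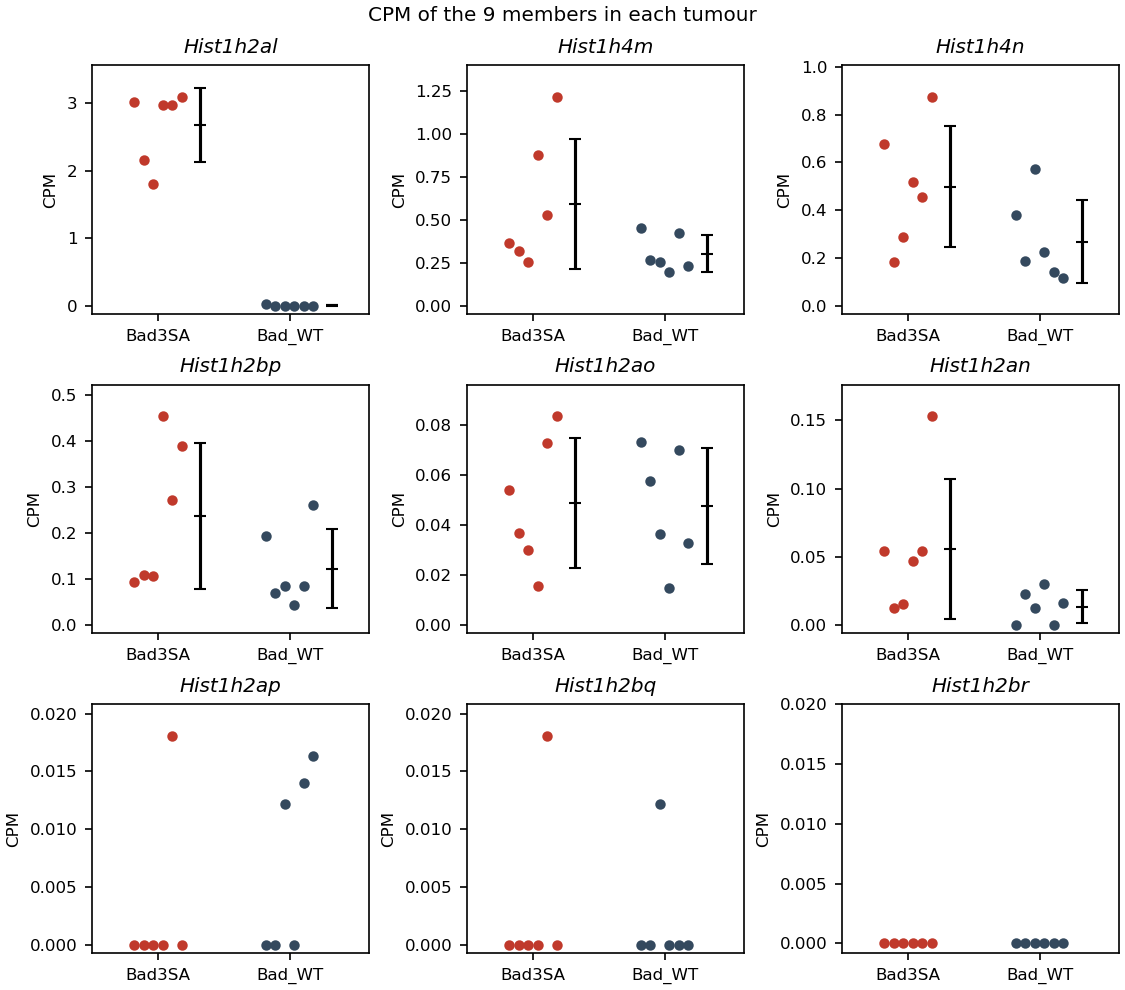
CPM of each of the 9 members in the 12 tumours, with Bad3SA tumours in red and Bad_WT tumours in dark blue, replicates 1 to 6 from left to right and mean ± SD beside them (omitted for the 3 members with 4 counts or fewer in all). The groups are separate for Hist1h2al, at 1.81 to 3.1 CPM against 0 to 0.0244 CPM, and overlap for every other member with counts.

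The H4 genes were the most abundant coding members. Histone H4 pairs with H3 at the core of the nucleosome. Hist1h4m had 27, 26, 17, 56, 29 and 88 counts in Bad3SA tumours 1 to 6 and 37, 23, 21, 13, 30 and 14 counts in Bad_WT tumours 1 to 6. Hist1h4n had 50, 15, 19, 33, 25 and 63 counts in Bad3SA tumours and 31, 16, 47, 15, 10 and 7 counts in Bad_WT tumours. In both genes Bad3SA 6 was the highest of the 12 tumours and the groups overlapped. Mean CPM of Hist1h4m was 0.595 ± 0.381 in Bad3SA and 0.303 ± 0.107 in Bad_WT (SD, n = 6 each), a log2 difference of 0.97 (SE 0.41, quasi-likelihood test of edgeR, adjusted p = 0.276). For Hist1h4n the means were 0.499 ± 0.253 and 0.269 ± 0.175 CPM, with a log2 fold change of 0.88 (SE 0.46, adjusted p = 0.364 by edgeR).

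If reads that match both genes were counted, the sum of the pair does not depend on how they were divided between the 2 genes. The sum lacks such reads if they were discarded, which the sources do not say. In each gene 50 windows also occur in the relative H4c9. The sum of the pair was 1.04, 0.5, 0.544, 1.4, 0.98 and 2.1 CPM in Bad3SA tumours 1 to 6 and 0.830, 0.450, 0.827, 0.417, 0.561 and 0.343 CPM in Bad_WT tumours 1 to 6. The mean was 1.09 ± 0.596 CPM in Bad3SA and 0.571 ± 0.211 CPM in Bad_WT (SD, n = 6 each), and the groups overlapped. The positive value of Hist1h4m rested largely on Bad3SA 4, 5 and 6, and that of Hist1h4n did so in part. Without these 3 tumours the fitted log2 fold change was 0.06 for Hist1h4m and 0.50 for Hist1h4n. Without Bad3SA 6 alone it was 0.62 and 0.64. Leaving out only Bad3SA 4 gave 0.84 and 0.87, and leaving out only Bad3SA 5 gave 0.98 and 0.89. Neither gene had an adjusted p under 0.05 in any fit that could be made.

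H2B genes were the next in level, and almost all their counts lay in Hist1h2bp, the H2B member that shares least sequence with others. H2A and H2B form the dimers that flank the H3 and H4 core. Hist1h2bp had 7, 9, 7, 29, 15 and 28 counts in Bad3SA tumours 1 to 6 and 16, 6, 7, 3, 6 and 16 counts in Bad_WT tumours 1 to 6. On the CPM scale Bad3SA 4, 5 and 6, at 0.455, 0.272 and 0.390, lay above the Bad_WT maximum of 0.261, which Bad3SA 5 passed by little, and the other 3 lay within the Bad_WT range. Hist1h2bp failed the abundance filter, and in the fit without that filter, where 0.69% of all genes were called, its log2 fold change was 0.89 (SE 0.54, edgeR adjusted p = 0.405). Hist1h2bq had 2 counts in all, 1 in Bad3SA 5 and 1 in Bad_WT 3. Hist1h2br had 0 counts in 12 tumours, and 3 counts of 862471091 would be 0.00347 CPM. That value bounds only the counts assigned to the gene. With 86.4% of its windows shared, it is no bound on the level if reads with several matches were discarded.

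The H2A members were rarer still. Hist1h2ao had 4, 3, 2, 1, 4 and 6 counts in Bad3SA tumours and 6, 5, 3, 1, 5 and 2 counts in Bad_WT tumours. The 2 groups had almost the same level, 0.0488 ± 0.0260 and 0.0475 ± 0.0232 CPM (SD, n = 6 each), and the ratio of pooled CPM was 0.992, with a 95% exact counting interval of 0.514 to 1.91. Its near-identical partner Hist1h2ap had 1 count in Bad3SA tumours and 3 counts in Bad_WT tumours. Hist1h2an had 4, 1, 1, 3, 3 and 11 counts in Bad3SA tumours and 0, 2, 1, 2, 0 and 1 counts in Bad_WT tumours, so the groups overlapped and 11 of the 23 Bad3SA counts came from Bad3SA 6. In the unfiltered fit its log2 fold change was 1.89 (SE 0.85, edgeR adjusted p = 0.352). Within the 3 head-to-head pairs the partners had unequal counts over 12 tumours. There were 29 for Hist1h2an beside 149 for Hist1h2bp, 42 for Hist1h2ao beside 2 for Hist1h2bq, and 4 for Hist1h2ap beside 0 for Hist1h2br. The partners also differ in exon length and in the share of windows found in other genes. Unequal counts are therefore no measure of unequal levels. Counting intervals here and below cover counting error only.

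Of the 9 members, 3 passed the abundance filter and 1, the pseudogene Hist1h2al, differed between the genotypes. Over all 18019 genes tested, 1.38% passed an adjusted p under 0.05, 0.622% higher and 0.760% lower in Bad3SA. No coding member passed by edgeR or by DESeq2, which called 4.79% of all genes, and 1, Hist1h4m, had an unadjusted p under 0.05 in the edgeR fit.

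Hist1h2al (ENSMUSG00000091383, chromosome 13, 51202727 to 51203065, minus strand, GRCm38) is a processed pseudogene of an H2A gene, that is, a copy annotated as arising from a reverse-transcribed message. It lies 29.4 Mb from the block of coding members. It had 223, 177, 120, 190, 164 and 223 counts in Bad3SA tumours 1 to 6, against 2 counts in Bad_WT 1 and 0 counts in each of Bad_WT 2 to 6. All 6 Bad3SA tumours were thus far above all 6 Bad_WT tumours, and the Bad3SA values spread little, at 2.67 ± 0.547 CPM (SD, n = 6). Among all genes tested, 2.23% had CPM ranges of the 2 groups that did not overlap. The pooled CPM was 2.66 in Bad3SA and 0.00444 in Bad_WT, a ratio of 598.5 with a 95% exact counting interval of 165.3 to 4948. The edgeR log2 fold change was 8.77 (SE 0.61, adjusted p = 3.48e-06).

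The size of that fold change rests on 2 counts, so it depends on the fit. Without Bad_WT 1 every Bad_WT tumour is at 0 and the fitted value is 10.58. It stayed between 8.53 and 8.87 when any other tumour was left out, and was 8.60 without Bad3SA 4, 5 and 6 (adjusted p = 0.000504). Adjusted for the age of the mice at end point it was 8.86 (SE 0.67, adjusted p = 2.41e-05). The gene passed the abundance filter through the Bad3SA group alone, so a gene of this kind could enter the test only by differing. In the fit without the filter the value was 8.74 (SE 0.63, edgeR adjusted p = 4.43e-08). In the authors' deposited table its log2 fold change is -5.99 with the sign of Bad_WT over Bad3SA (standard error 0.34, adjusted p = 1.67e-67). The DESeq2 Wald test run here on the same counts gave 9.12, Bad3SA over Bad_WT (SE 0.87, adjusted p = 4.35e-23). Why the deposited value is smaller in size was not tested. Among the 689 processed pseudogenes tested, 25 were called (3.63%), all 25 higher in Bad3SA.

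Within 500 kb of Hist1h2al there are 18 other genes in the table, of which 8 could be tested and 0 passed (edgeR). The 10 others had too few counts, among them Gm44341, the miRNA gene that overlaps Hist1h2al, with 7 counts in Bad3SA and 0 in Bad_WT. The nearest tested neighbours are Nxnl2, 27.5 kb away, with 463 counts in Bad3SA and 721 in Bad_WT (log2 fold change -0.38, SE 0.40, adjusted p = 0.637 by edgeR), and Spin1, 50.2 kb away, with 57096 and 74420 counts (-0.27, SE 0.09, adjusted p = 0.177). Gm29787, a processed pseudogene 2.2 kb away on the same strand, had 10 counts in Bad3SA tumours and 17 in Bad_WT tumours. In the plot of neighbours by distance, no tested gene other than Hist1h2al stands away from 0 by more than 0.43.

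**Figure D3:**
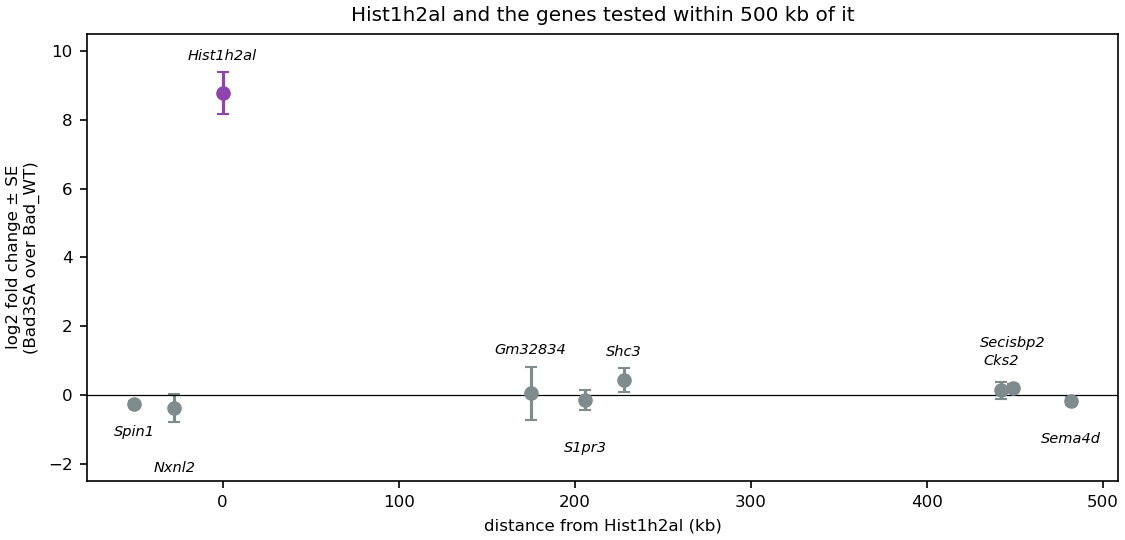
The edgeR log2 fold change (Bad3SA over Bad_WT) ± SE of Hist1h2al and of the 8 genes tested within 500 kb, against distance in kb from Hist1h2al. Hist1h2al stands at 8.77 and the neighbours lie between -0.38 and 0.43.

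Hist1h2al is nearly identical to a group of H2A genes on chromosome 3. Over its 339 bases it differs at 2 positions from H2ac18 and H2ac19, and at 6 positions from H2ac20. Gm20634, annotated as a processed transcript, is identical to H2ac18 over 529 bases. The differences from H2ac18 are C120T and T216G, counted from 1 at the 5′ end of Hist1h2al, with the Hist1h2al base first and the H2ac18 base last. The stretches around them are shown because they are what separates the pseudogene from its closest relative, with the differing base in capitals.
Hist1h2al, bases 100 to 140: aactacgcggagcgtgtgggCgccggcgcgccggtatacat
H2ac18, the same stretch: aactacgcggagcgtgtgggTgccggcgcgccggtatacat
Hist1h2al, bases 196 to 236: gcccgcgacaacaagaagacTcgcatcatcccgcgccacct
H2ac18, the same stretch: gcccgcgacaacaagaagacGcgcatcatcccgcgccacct

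Only 46 of the 240 windows of 100 bases in Hist1h2al (19.2%) occur in another annotated gene. H2ac18, H2ac19 and Gm20634 had 0 counts in all 12 tumours. H2ac20 had 17 counts in Bad3SA tumours and 19 in Bad_WT tumours, with 1 to 6 and 1 to 5 counts per tumour. Of the windows in H2ac19 100%, and of those in H2ac18 88.3%, also occur in another gene. Their counts of 0 are therefore no measure of their level if reads with several matches were discarded, which the sources do not say. The bases of the reads themselves were not analysed here, so whether the counts at Hist1h2al carry its own bases at positions 120 and 216 was not tested.

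Set beside their relatives, the coding members held a minor part of the counts assigned to histone genes. They held 0.217% to 0.642% of the summed CPM of all 67 coding family genes in Bad3SA tumours and 0.202% to 0.417% in Bad_WT tumours. H1f2, which encodes the linker histone H1.2, and H2bc4, an H2B gene, together held 73.0% to 84.9% of it in Bad3SA tumours and 75.7% to 81.8% in Bad_WT tumours. Per kb of exon, H1f2 was at 115 CPM and H2bc4 at 57.9 CPM over 12 tumours, against 1.12 CPM for Hist1h4m, which ranked 15th of the 70 genes. Of the 59 coding relatives, 13 reached a mean of 1 CPM and 7 had no count in any tumour. In every coding member but Hist1h2bp, 80.7% or more of the windows also occur in another gene, against 5.07% in H1f2 and 25.4% in H2bc4. If reads with several matches were discarded, these shares describe assigned counts and not amounts of message.

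Levels ranged widely among the family genes that carry a stem-loop. Of the 67 coding family genes, 31 had a stem-loop and no poly(A) signal at an annotated end, with a median of 0.437 CPM per kb and a highest value of 2.57 CPM per kb. Another 13 had both features, with a median of 0.880 and a highest value of 115 CPM per kb, and 7 of these 13 reached 1 CPM, against 4 of the 31. Hist1h4m, Hist1h4n, Hist1h2ao and Hist1h2ap belong to the first set and Hist1h2bp to the second. The 4 genes with a signal and no stem-loop had a median of 0.33 and a highest value of 1.77 CPM per kb. The 19 with neither feature had a median of 0.293 and a highest value of 57.9 CPM per kb, that of H2bc4. In each of these last sets 1 gene reached 1 CPM. The median was higher with a signal than without it, both among genes with a stem-loop and among those without. The second comparison rests on 4 genes with a signal. Of the 13 genes with 80% or more of their windows shared, 7 were members, and the median level in this set was 0.0885 CPM per kb. The median was 0.345 for 12 genes with 50 to 80% shared, 0.585 for 26 genes with 10 to 50% and 0.292 for 16 genes with under 10%, so it did not fall steadily with the share. These are descriptions across genes of the same libraries, without a test.

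**Figure D4:**
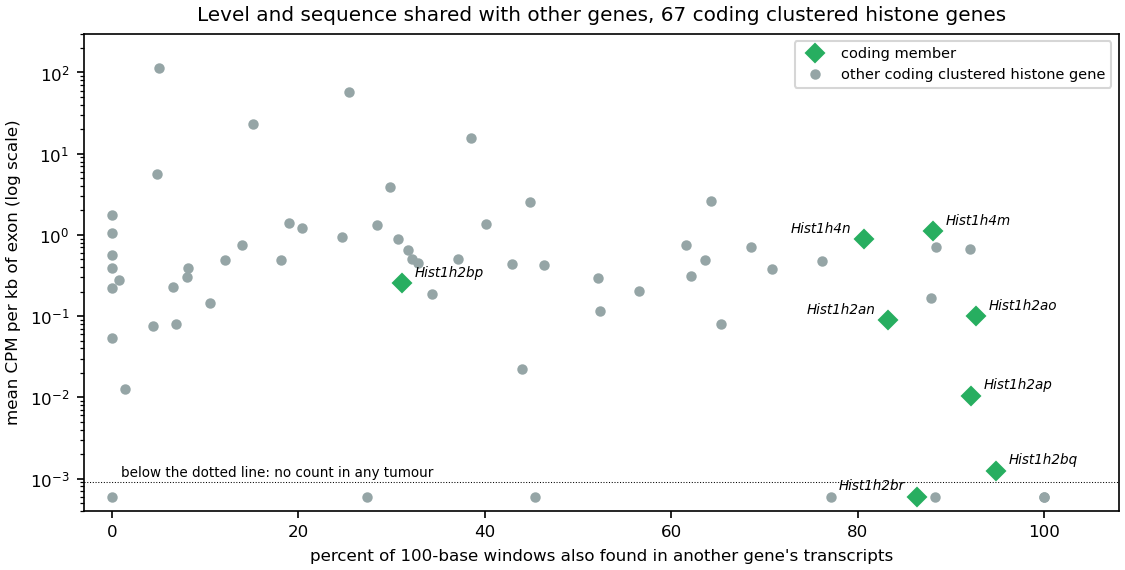
Mean CPM per kb of exon over 12 tumours on a log scale, against the percent of 100-base windows that also occur in transcripts of another gene, for the 67 coding family genes. The members (green) lie at 80.7% or more except Hist1h2bp at 31.1%, and span from Hist1h4m at 1.12 CPM per kb to Hist1h2br with no count; genes with no count are drawn below the dotted line.

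The 2 tested H4 members lay in the middle of their class. Of 42 coding family genes tested, 40 had a positive and 2 a negative log2 fold change, with a median of 0.56, beside 0.00 over all 18019 genes. By class the median was 0.48 for 5 H1 genes, 0.47 for 6 H2A, 0.50 for 10 H2B, 0.55 for 9 H3 and 0.92 for 12 H4 genes, with all 12 of the H4 genes positive. Hist1h4m stood at 0.97 and Hist1h4n at 0.88. Bad3SA 6 was the highest of the 12 tumours in 23 of the 42 genes and Bad3SA 5 in 8. How often each tumour is highest over all genes tested was not counted, so this cannot be called particular to histone genes. Without Bad3SA 4, 5 and 6 the medians were nearer to 0 in every class, at 0.14 for H1, 0.11 for H2A, 0.16 for H2B, -0.06 for H3 and 0.36 for H4. Without Bad3SA 6 alone they were 0.34, 0.32, 0.28, 0.17 and 0.68 in the same order of classes. These genes share libraries and sequence, so their common sign is no count of separate events.

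**Figure D5:**
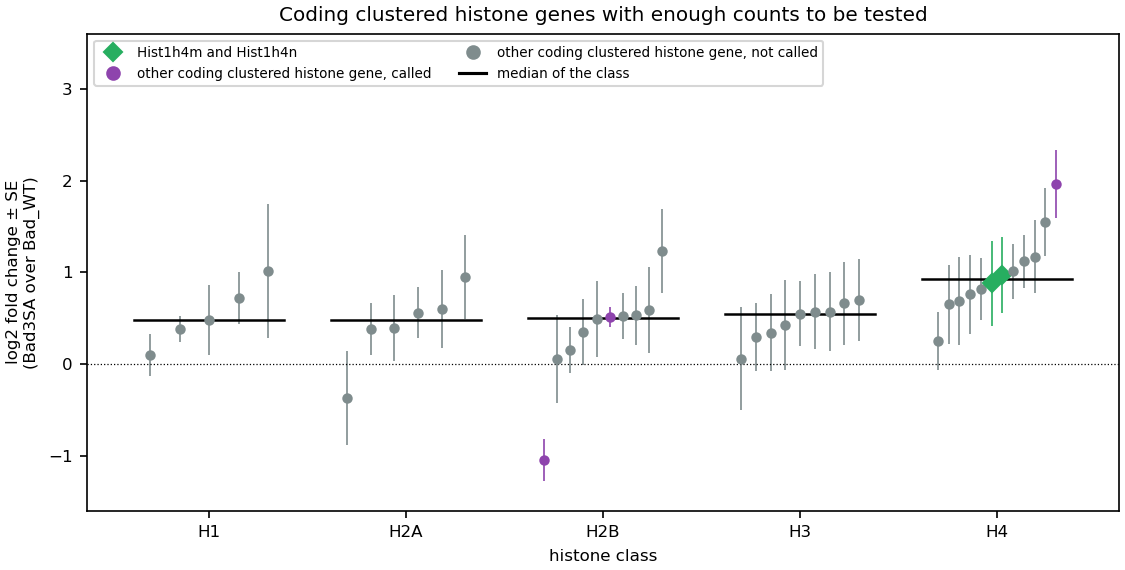
Log2 fold change (Bad3SA over Bad_WT) ± SE of the 42 coding family genes with enough counts to be tested, by histone class, with the class median as a black line. Hist1h4m and Hist1h4n (green) sit at the H4 median of 0.92, and 3 relatives that passed an adjusted p under 0.05 are in purple.

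Of the 40 coding relatives tested, 2 were called higher and 1 lower, beside 1.23% of all protein-coding genes tested in either direction. H4c14, an H4 gene on chromosome 3, had 0.305, 0.585 and 0.793 CPM (lowest, median, highest) in Bad3SA tumours and 0.0608, 0.147 and 0.256 CPM in Bad_WT tumours. Its groups did not overlap, and the log2 fold change was 1.96 (SE 0.37, edgeR adjusted p = 0.0179). H2bc4 had 65.6, 75.2 and 93.9 CPM in Bad3SA tumours and 49.3, 54.5 and 65.3 CPM in Bad_WT tumours, with a log2 fold change of 0.51 (SE 0.11, adjusted p = 0.0461 by edgeR). Its ranges only just parted.

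H2bc21, an H2B gene, went the other way. It had 2.56, 3.09 and 3.31 CPM in Bad3SA tumours and 3.77, 6.16 and 8.85 CPM in Bad_WT tumours, without overlap, and a log2 fold change of -1.05 (SE 0.23, adjusted p = 0.0396 by edgeR). The calls were close to the threshold. With age at end point in the model, which called 0.405% of all genes, none of the 3 passed, while the log2 fold changes stayed at 1.96 for H4c14 (adjusted p = 0.117), 0.47 for H2bc4 (adjusted p = 0.280) and -1.03 for H2bc21 (adjusted p = 0.236). Without Bad3SA 4, 5 and 6 they were 1.80, 0.47 and -1.02, with adjusted p values of 0.121, 0.154 and 0.195 by edgeR. Leaving out Bad_WT 5 ended the call of H4c14 (adjusted p = 0.0524), the call of H2bc4 remained only without Bad3SA 3 or Bad_WT 4, and that of H2bc21 only without Bad_WT 4, 5 or 6. H1f2, the most abundant, had 168, 187 and 259 CPM in Bad3SA tumours and 135, 148 and 213 CPM in Bad_WT tumours, with overlap (log2 fold change 0.38, SE 0.14, edgeR adjusted p = 0.216). Of the 2 relatives annotated as pseudogenes, H2bu1-ps was tested (0.24, SE 0.33, adjusted p = 0.728), and H2ac14 had 20 counts in all.

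Genes that make, process or accompany histone messages did not pass the test. Over 7 lists with 131 of 134 genes tested outside the family, edgeR and DESeq2 each called 0, and 12 of the 131 (9.16%) had an unadjusted p under 0.05 by edgeR, against 16.2% of all genes tested. The 24 S-phase replication genes, which copy DNA when these histones are made, had a median log2 fold change of -0.05, with 8 positive and 16 negative. The smallest p values there were for Gins2, part of the replicative helicase (0.37, SE 0.15, edgeR adjusted p = 0.245), and Pola1, the catalytic subunit of DNA polymerase alpha (-0.40, SE 0.17, adjusted p = 0.271). For 19 G2-M genes the median was -0.12, led by the mitotic motors Cenpe (-0.62) and Kif20a (-0.46). The 18 genes of histone transcription and G1-S control had a median of -0.08, led by the transcription factors Nfya (-0.37) and E2f2 (-0.39). In Bad3SA 6, where the sum of the coding members was highest, the S-phase mean of log2 CPM ranked 3 and the G2-M mean 4 among the 12 tumours. The 2 highest S-phase means were in Bad3SA 5 (5.91) and Bad_WT 6 (5.87).

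The processing lists were as level in their medians. By sign, 10 genes were positive and 17 negative for histone 3′ end processing, and 3 positive and 12 negative for polyadenylation. Among the histone chaperones 9 were positive and 11 negative. For 27 genes of histone 3′ end processing the median log2 fold change was -0.05, led by Tut4, a terminal uridylyltransferase known from human cells to act on histone messages (-0.56, SE 0.21, edgeR adjusted p = 0.228), and Cstf2, a cleavage stimulation factor subunit (-0.31). For 15 genes of polyadenylation the median was -0.03, led by Cstf3 (-0.32, SE 0.11, edgeR adjusted p = 0.199) and Pabpn1, the nuclear poly(A) binding protein (0.60, SE 0.23, adjusted p = 0.232). For 20 histone chaperones it was -0.03, led by Chaf1a, the large subunit of chromatin assembly factor 1 (-0.49, adjusted p = 0.174), and Rbbp7 (-0.26). Of the 11 replication-independent variants tested, 9 were positive, with a median of 0.11, led by Macroh2a2 (-0.84, SE 0.31, adjusted p = 0.212) and H2aj (0.50, SE 0.21, adjusted p = 0.278). Among the cell type lists, the 5 erythroid markers were all positive with a median of 1.2 and none passed. Their sum was 67.1 to 228 CPM in Bad3SA tumours and 25.9 to 115 CPM in Bad_WT tumours, and its part in the histone values was not tested. Medians were 0.58 for 6 leukocyte, 0.29 for 5 fibroblast, -2.34 for 5 skeletal muscle, -0.81 for 5 keratinocyte and -0.01 for 7 mammary epithelial markers, with no call among them. In Bad_WT 4 the muscle and keratinocyte means of log2 CPM were 7.47 and 5.22, against at most 1.63 and 1.24 in other Bad_WT tumours. The median sum of muscle markers was 14.3 CPM in Bad3SA and 11.4 CPM in Bad_WT. For keratinocyte markers it was 25.3 and 10.3 CPM, so the typical tumour did not show the negative sign.

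In the authors' deposited table, signed as Bad_WT over Bad3SA, the coding members run from -0.89 for Hist1h2an (adjusted p = 0.252) and -0.77 for Hist1h4m (adjusted p = 0.199) through -0.66 for Hist1h4n and -0.65 for Hist1h2bp to -0.01 for Hist1h2ao and Hist1h2bq and 0.10 for Hist1h2ap. None has an adjusted p under 0.05 there. The relatives H4c14 (-1.64, adjusted p = 1.91e-05), H2bc4 (-0.49, adjusted p = 0.00798) and H2bc21 (0.99, adjusted p = 0.000338) do have one in the authors' deposited table. So do H4f16 (-1.26, adjusted p = 0.00707), H4c4 (-0.99, adjusted p = 0.00659) and H4c8 (-0.89, adjusted p = 0.0317), again from the authors' deposited table. These 3 H4 genes are higher in Bad3SA there. In the edgeR fit they had log2 fold changes of 1.55, 1.12 and 1.01 with adjusted p values of 0.0652, 0.0877 and 0.134, and DESeq2 on the same counts gave adjusted p values of 0.0175, 0.0107 and 0.0247.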

How the data were processed

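For each of 12 tumours the authors deposited a table of raw counts by Ensembl gene, and a comparison table with log2 fold changes, their standard errors and Wald statistics (here treated as score columns), mean normalised signal, and p-values, per the file headers. Per the submitters' processing notes, reads were handled with STAR 2.7.9a and fastp 0.23.1 on GRCm38, and DESeq2 was used. Not given in the sources used here are the counting tool, annotation release, strand setting and treatment of reads with several matches. The sign of the deposited fold changes was settled by their rank correlation of -0.997 with the present fit over 18019 genes.

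Counts were filtered with filterByExpr, scaled by TMM and tested for genotype with the robust quasi-likelihood F test of edgeR 4.0.16 (R 4.3.3), with Benjamini-Hochberg adjustment over all genes tested and calls at 0.05. Standard errors were taken as the size of the log2 fold change over the square root of F, and positive values are higher in Bad3SA. The fit was tested on simulated counts. Alternatives used DESeq2 1.42.0, other filters, age, title number, and left-out tumours. Members with too few counts were read from the unfiltered fit. Sequences, positions and windows come from GENCODE release 21 transcripts on GRCm38, with identity by BLAST+ 2.17.0. List means use log2(CPM + 0.5).

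Members, lists and rules were chosen with earlier results of these data known. Named are all members, relatives that passed, the most abundant relatives, and from each related list the 2 genes with the smallest p. The relatives were added after the symbols in the table had been seen.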

Additional observations from a re-analysis of the deposited data

Results flagged for a closer look

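In 30 groups of 6 tumours (members, 2 sums and 4 relatives), 6 had an extreme value whose gap to its nearest neighbour exceeded Dixon's 95% critical value. For normally distributed values chance gives about 1 group in 20. Counts near 0 are not of that kind, so no excess can be read from the 6. Hist1h2an was at 0.153 CPM in Bad3SA 6, against 0.0544 CPM in the next Bad3SA tumour. H1f2 was at 213 CPM in Bad_WT 3, against 154 CPM in the next Bad_WT tumour. The other 4 flags are 1 or 2 counts in a group otherwise at 0, and such a group is flagged whatever the value. They are Hist1h2bq at 0.0181 CPM in Bad3SA 5 and at 0.0122 CPM in Bad_WT 3, Hist1h2ap at 0.0181 CPM in Bad3SA 5, and Hist1h2al at 0.0244 CPM in Bad_WT 1.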

How the results depend on the processing

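Hist1h2al was the 1 member called in each of the 20 alternatives, and 0 coding members were called in any of them. The other counts were less stable. Over all genes, 249 were called, with 151 without Bad3SA 4, 5 and 6, 863 by DESeq2, 163 with at least 1 CPM in 6 tumours and 73 with age. Higher calls, 112, were 372 by DESeq2 and 50 with age. Lower calls, 137, were 67 without Bad3SA 4, 5 and 6, 491 by DESeq2, 86 with at least 1 CPM and 23 with age. Leaving out 1 tumour gave 147 to 315 calls, 73 to 153 higher and 61 to 162 lower. Of the relatives, 3 were called, with 6 by DESeq2, 1 with at least 1 CPM, 1 without a filter, 0 with age, 0 without Bad3SA 4, 5 and 6, and 1 to 3 with 1 tumour left out. Tumours with the same title number did not deviate together (correlations -0.271 to 0.283, with 2 of 12 closest to their own number). With that number as a replicate block, 105 genes were called, 63 higher and 42 lower, with 0 relatives. The summed CPM of coding members differed by 0.421 to 0.834 with 1 tumour left out and by 0.385 without Hist1h4m. The H3 median turned to -0.06 without Bad3SA 4, 5 and 6. With a limit of 0.1 CPM or of 10 counts, 3 coding members passed, against 0 at 1 CPM. Hist1h4m and Hist1h4n could not be tested with at least 1 CPM in 6 tumours. The causes were not tested. At 3 counts per tumour, 0.0346 to 0.0544 CPM, most members are at the limit of the depth.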
